A study of Mus musculus with 22 samples.

Results

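The 13 malignant lymphomas of the Eμ-Myc series were ordered by how much S100a8 and S100a9 RNA they held, and the 6 highest were set against the 6 lowest, with 1 lymphoma in the middle left out. These 13 arrays are part of 22, which also comprise 4 wild type and 5 premalignant arrays. The rank was the mean of the log2 intensities of S100a8 and S100a9, each measured by 1 probe set of an Affymetrix mouse array. The arrays of each side were thus selected on measured values, the intensities of these 2 genes, and not on a genotype or a treatment, so S100a8 and S100a9 themselves are described here without a test. The comparison asks which other genes differ between lymphomas at both ends of the rank.

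All mice were C57Bl/6. Wild type arrays held B220-positive B cells of mice without the transgene. Premalignant arrays held B cells of Eμ-Myc transgenic mice without lymphoma, and malignant arrays held B cells of lymphomas of Eμ-Myc transgenic mice. In the Eμ-Myc transgene the immunoglobulin heavy chain enhancer drives Myc, so that its expression is directed to B lineage cells. Cells were taken from bone marrow or spleen with magnetic beads against B220 or IgM, and the labels do not say which organ or which antibody served for each array. The labels give 4 to 6 weeks of age for every array, the lymphomas included.

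S100A8 and S100A9 are small calcium-binding proteins of the S100 family that pair to form calprotectin, which binds zinc and manganese and is among the most abundant proteins of the neutrophil cytosol. Monocytes hold them as well, and outside the cell they act on the receptors TLR4 and RAGE. Neutrophil granules are filled in order during maturation in the bone marrow. Promyelocytes make the primary granule proteins such as myeloperoxidase and neutrophil elastase, and myelocytes make the secondary granule proteins such as lactoferrin, cathelicidin (Camp) and neutrophilic granule protein (Ngp). Factors of the C/EBP family and PU.1 drive this programme.

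S100a8 and S100a9 moved as a pair over the 13 lymphomas. The mean of both was 11.07 log2 units in malignant replicate 10, 10.55 in replicate 4, 9.52 in replicate 12, 8.81 in replicate 13, 8.28 in replicate 9 and 7.85 in replicate 8, the last array inside the high side. The middle array, replicate 6, lay at 6.67. On the low side replicate 3 lay at 6.32, just inside, followed by replicate 1 at 6.07, replicate 7 at 5.57, replicate 2 at 5.40, replicate 5 at 3.14 and replicate 11 at 3.02. The order was a slope with no clean break: the gap between ranks 6 and 7 was 1.19 log2 units, that between ranks 7 and 8 was 0.35, and the widest gap near the low end, 2.25, set replicates 5 and 11 apart from the rest. Both genes gave nearly the same value on each lymphoma, with a largest difference of 0.46 log2 units and a Pearson r of 0.995 over 13 lymphomas, and either gene alone gave the same 6 and 6 arrays.

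On the high side S100a8 ranged from 7.93 over a median of 9.16 to 11.09 log2 units, and on the low side from 2.79 over 5.67 to 6.29. S100a9 ranged from 7.77 over 9.17 to 11.05 on the high side and from 3.25 over 5.29 to 6.34 on the low side. The ratio of the group means was 22.1 for S100a8 and 21.0 for S100a9, which the choice of arrays fixes. The arrays without lymphoma spanned the same scale: the mean of both genes was 6.89, 7.93, 3.36 and 3.85 in wild type replicates 1 to 4, and 7.02, 8.49, 8.24, 8.17 and 7.73 in premalignant replicates 1 to 5. The premalignant arrays thus lay above the S100-low lymphomas and below the 4 highest lymphomas, while 2 wild type arrays lay at or above the middle lymphoma and 2 among the lowest of the low side.

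**Figure D1:**
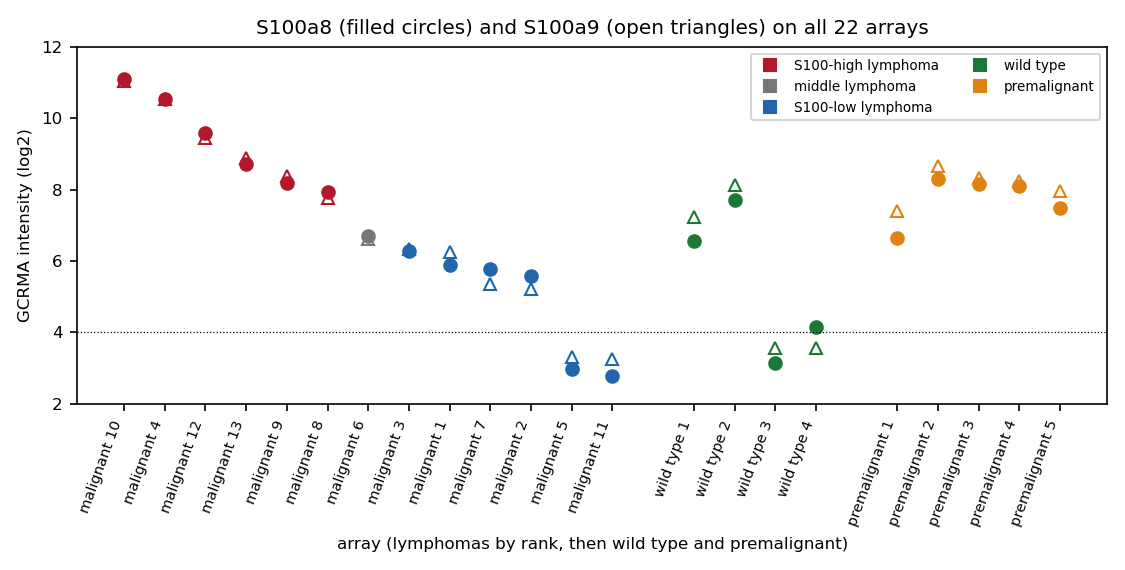
Log2 intensity of S100a8 (filled circles) and S100a9 (open triangles) on each of the 22 arrays, lymphomas in rank order and then the wild type and premalignant arrays; the dotted line marks a log2 intensity of 4. Both genes coincide on each lymphoma, and malignant replicates 5 and 11 lie below the line.

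Some properties of the lymphoma arrays moved across the split or within it. The B lineage genes Cd79a (10.75 to 12.08 log2 units over the 13 lymphomas), Cd79b (10.04 to 11.33) and Cd22 (8.05 to 10.61) were bright on every lymphoma. So was Ptprc (8.07 to 9.61), the gene of CD45, which is not confined to B cells. The probe set of Pax5, a further B lineage gene, was at most 2.65 on every lymphoma. The parotid gene Bpifa2 exceeded 6 log2 units on 7 lymphomas, 2 of them on the high side and 4 on the low side, and did not exceed 2.52 on any wild type or premalignant array. Xist, an X-linked RNA of female cells, exceeded 6 on 2 of 6 high and 5 of 6 low lymphomas. Y-linked Eif2s3y exceeded 4 on 3 of 6 high and 0 of 6 low lymphomas. Low Xist did not always go with Eif2s3y. Both were dim on high replicate 9 (Xist 1.78, Eif2s3y 3.31) and low replicate 5 (1.73 and 2.93). The 3′ minus 5′ probe difference, a measure of RNA degradation, was 2.00 ± 0.38 on the high side and 1.83 ± 0.42 on the low side for beta-actin (SD, n = 6 each; two-sided exact permutation p = 0.476, adjusted over both measures 0.476). For Gapdh it was 1.08 ± 0.23 and 0.78 ± 0.21 (two-sided exact permutation p = 0.0433, adjusted 0.0866). In such bulk samples fewer cells of a type and less RNA per cell cannot be told apart.

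The 250 bases before the annotated start are shown for both ranking genes and for the 2 secondary granule genes with the largest differences, because these 4 RNAs were brightest on the same lymphomas. Sequences are from RefSeq (build GRCm38.p6), 5′ to 3′ on the gene's strand. S100a8 (chr3:90668821-90669070, plus strand) and S100a9 (chr3:90695722-90695971, minus strand) are neighbours with 22595 bases between them, and Ngp (chr9:110419558-110419807, plus strand) and Camp (chr9:109849457-109849706, minus strand) share chromosome 9. Capitals mark matches, on either strand, to a C/EBP motif, TTNNGCAA, or to the PU.1 core, GAGGAA.
S100a8: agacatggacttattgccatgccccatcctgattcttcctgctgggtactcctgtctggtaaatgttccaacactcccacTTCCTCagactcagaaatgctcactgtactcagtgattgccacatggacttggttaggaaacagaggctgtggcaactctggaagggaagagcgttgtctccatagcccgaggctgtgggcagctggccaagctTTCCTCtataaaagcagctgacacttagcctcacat
S100a9: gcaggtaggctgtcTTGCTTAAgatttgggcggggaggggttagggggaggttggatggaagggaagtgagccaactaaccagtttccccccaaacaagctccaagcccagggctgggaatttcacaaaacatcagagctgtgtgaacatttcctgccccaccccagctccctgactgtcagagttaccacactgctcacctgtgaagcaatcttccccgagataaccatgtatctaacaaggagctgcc
Ngp: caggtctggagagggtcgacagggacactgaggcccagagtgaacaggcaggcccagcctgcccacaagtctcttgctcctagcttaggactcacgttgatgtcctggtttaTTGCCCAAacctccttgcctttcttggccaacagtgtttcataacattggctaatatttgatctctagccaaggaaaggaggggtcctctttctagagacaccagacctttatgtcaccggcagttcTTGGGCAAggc
Camp: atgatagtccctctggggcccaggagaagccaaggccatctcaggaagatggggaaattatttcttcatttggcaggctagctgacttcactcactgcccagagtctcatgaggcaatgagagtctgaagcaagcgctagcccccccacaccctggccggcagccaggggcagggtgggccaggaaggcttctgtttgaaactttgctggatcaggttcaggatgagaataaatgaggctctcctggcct
The C/EBP letters occurred at -236 to -229 from the start in S100a9 and at -138 to -131 and -11 to -4 in Ngp. The PU.1 core occurred at -170 to -165 and -36 to -31 in S100a8, and the Camp window held neither. With Ltf and Chil3 added, the C/EBP motif was found in 3 of 6 windows, against 9.56% of 32851 RefSeq windows of the same length, and the PU.1 core in 2 of 6, against 23.3%. These matches are descriptions of the letters only.

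Between the S100-high and S100-low lymphomas no tested gene passed an adjusted p under 0.05. Of 6435 genes tested with limma 0 were called (0%), and the smallest Benjamini-Hochberg adjusted p was 0.282. At an unadjusted p under 0.05 there were 362 genes (5.63%), of which 129 (2%) were higher and 233 (3.62%) lower on the high side. With each array centred on its own median these were 210 higher and 142 lower, and with each array centred on the hybridisation spikes 15 higher and 404 lower, since the spikes moved the median difference of all genes from -0.011 to -0.27. The ratio of group means was at least 2 for 36 genes on the high side (0.559%) and for 44 on the low side (0.684%). The values of the 6 high and 6 low arrays did not overlap for 17 genes (0.264%), 8 higher (0.124%) and 9 lower (0.14%). A fit of every gene on the S100a8 and S100a9 mean over all 13 lymphomas, which uses the order and not only the sides, called 2 genes of 6435 (0.0311%) at an adjusted p under 0.05: Ngp and Atp1b1, both with a positive slope. At an unadjusted p under 0.05 this fit held 219 genes (3.4%). Without the 7 lymphomas with Bpifa2 above 6 this slope fit had 6 arrays and called 0 genes, with an adjusted p of 0.289 for Ngp and 0.102 for Atp1b1.

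**Figure D2:**
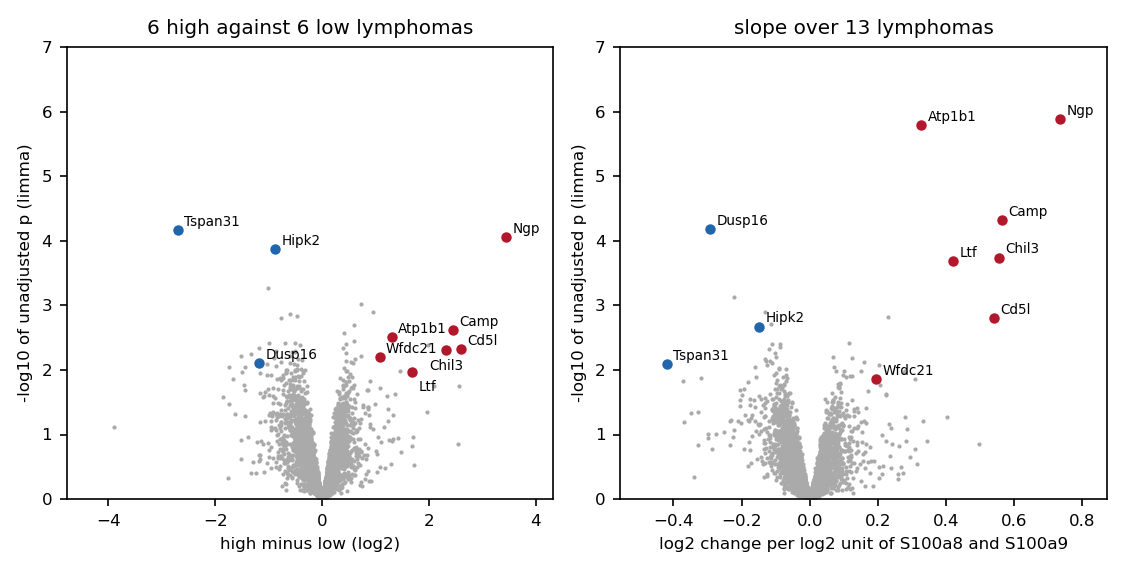
For each of 6435 genes, the difference between 6 high and 6 low lymphomas (left) or the slope on the mean of S100a8 and S100a9 over 13 lymphomas (right), in log2 units, against -log10 of limma's unadjusted p. Ngp lies at the far right of both panels, and Tspan31 and Hipk2 stand out to the left in the split only.

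Ngp, a cystatin-like protein of neutrophil granules, was the gene with the largest positive difference and followed the rank almost array by array. It lay at 6.38, 8.07 and 10.34 log2 units (lowest, median, highest) on the high side, at 5.81 on the middle array and at 4.03, 4.77 and 5.68 on the low side. Every high lymphoma was above every low one, and the 6 high arrays kept the order of the rank. The difference was 3.45 log2 units (SE 0.62), a ratio of group means of 11.0, with a limma adjusted p of 0.282. In the slope fit Ngp changed by 0.73 log2 units per log2 unit of S100a8 and S100a9 (SE 0.091, adjusted p = 0.00524, and from 3.1e-05 to 0.289 over its alternatives). Pearson's r was 0.91 and Spearman's rho 0.93 over 13 lymphomas, and r was 0.85 without replicates 10 and 4, the arrays farthest from the median. On wild type arrays Ngp ranged from 4.11 to 6.69 and on premalignant arrays from 5.74 to 7.20, so that only the 4 highest lymphomas exceeded every wild type and premalignant array.

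Camp, the cathelicidin antimicrobial peptide, exceeded 4 log2 units on high lymphomas only among the 22 arrays. Its values were 3.09, 5.39 and 7.42 log2 units on the high side, against 2.62, 2.78 and 3.05 on the low side, and 4 of 6 high arrays and none of the low arrays exceeded 4. It did not exceed 3.87 on any wild type or premalignant array. It passed the filter on dim genes (above 4 on at least 4 arrays) through these 4 high arrays alone and therefore had to differ, in the split and on the slope. The sides did not overlap, and the high mean was at least 2.41-fold above the low mean set at the floor of 4 log2 units (difference 2.46, SE 0.65, limma adjusted p = 0.866). The slope fit gave an adjusted p of 0.103 for Camp (0.012 to 0.757 over its alternatives), with r = 0.84 over 13 lymphomas.

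Ltf, which encodes the iron-binding protein lactoferrin, lay at 3.16, 4.60 and 7.20 log2 units on the high side and did not exceed 3.18 on the low side. As for Camp, the 4 highest lymphomas were the only arrays above 4, and Ltf entered the test through them alone. The difference was 1.69 (SE 0.57, limma adjusted p = 0.866), at least 1.73-fold. Chil3, a chitinase-like protein made by neutrophil precursors and some macrophages, lay at 4.86, 5.74 and 8.70 on the high side and at 3.03, 3.60 and 5.98 on the low side, where replicate 7 reached into the high range. Its difference was 2.32 (SE 0.68, limma adjusted p = 0.866), a ratio of 4.98. Pglyrp1, a peptidoglycan-binding granule protein, exceeded 4 on replicates 10 and 4 alone among the lymphomas, yet lay at 4.64 to 6.25 on the wild type arrays. Lcn2, the siderophore-binding lipocalin of the secondary granule list, was too dim for the test. It reached 7.47 and 6.00 on replicates 10 and 4, did not exceed 3.85 on the other lymphomas, and lay at 4.62 on premalignant replicate 2.

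**Figure D3:**
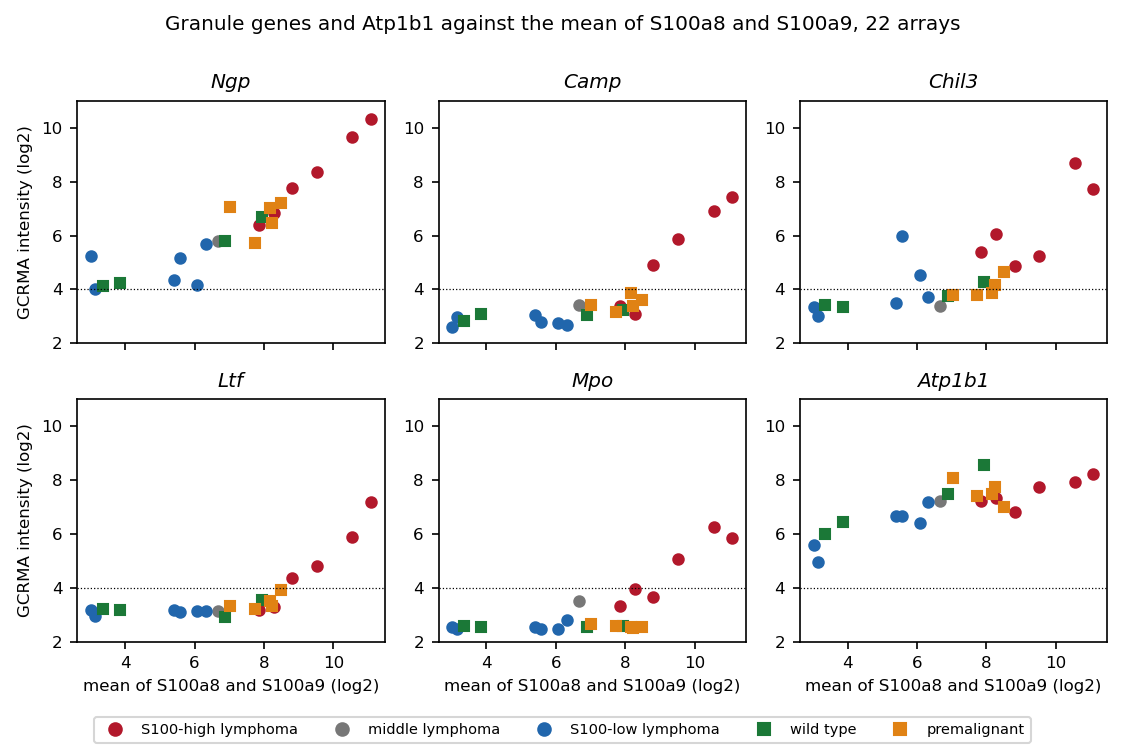
Log2 intensity of 5 granule genes and Atp1b1 against the mean of S100a8 and S100a9 on the same array, for 22 arrays; the dotted line marks a log2 intensity of 4. Camp and Ltf lie above the line only on the 4 S100-high lymphomas with a mean of 8.81 or more. Mpo lies above it only on the 3 with a mean of 9.52 or more. S100-high replicates 9 and 8 lie below the line for these 3 genes. So do the wild type and premalignant arrays, whose mean does not exceed 8.49.

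Of the 20 listed secondary granule genes 12 were tested. In the split, 5 were higher at an unadjusted p under 0.05 (Ngp, Camp, Chil3, Ltf and Pglyrp1) and 0 were lower, beside 2% and 3.62% of all 6435 genes. Camp and Ltf entered the test through the high side alone, so this count describes the list and is no support for its direction. With spike centring 4 were higher and 1 lower. The difference was above 0 for 8 of the 12, and the median was 0.50, beside -0.011 over all genes. Not every member had a positive difference. Lyz2, the lysozyme of macrophages and neutrophils, lay at 8.68, 8.98 and 10.43 on the high side and at 9.06, 9.70 and 11.52 on the low side, a difference of -0.96 (SE 0.47, limma adjusted p = 0.866) that was 0.014 without the arrays with Bpifa2 above 6. The difference was 0.49 (SE 0.32) for Anxa1, an anti-inflammatory annexin of granulocytes, and 0.24 without replicate 5.

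Primary granule genes were too dim for the test on most arrays, and where they were seen, they were seen on S100-high lymphomas. Mpo, myeloperoxidase, lay at 5.83 in malignant replicate 10, 6.27 in replicate 4 and 5.06 in replicate 12, and it was 4 or lower on the other 10 lymphomas. On the low side Mpo did not exceed 2.80, and on wild type and premalignant arrays it did not exceed 2.64. Prtn3, the serine protease proteinase 3, exceeded 4 on the same 3 lymphomas, with 5.50, 5.44 and 4.13. Ctsg, cathepsin G, exceeded 4 on replicates 10 and 4 (5.49 and 4.94), and Elane, neutrophil elastase, on replicate 4 alone (4.13).

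With no filter on dim genes Mpo had a difference of 2.13 (SE 0.48, limma adjusted p = 0.820) and a slope with an adjusted p of 0.0747. The 5 genes of the primary granule and precursor list that were bright enough to be tested include no granule protease. Their median was -0.11. Of these 5 genes 1 was higher at an unadjusted p under 0.05 and 0 were lower, beside 2% and 3.62% of all genes. It was Gfi1, a transcriptional repressor of haematopoietic cells. Gfi1 lay at 5.36, 6.20 and 6.61 on the high side and at 4.24, 5.15 and 6.16 on the low side (difference 0.87, SE 0.33, limma adjusted p = 0.866, and -0.17 without the arrays with Bpifa2 above 6). Serpinb1a, an inhibitor of neutrophil proteases, had a difference of -0.60 (SE 0.72, limma adjusted p = 0.933), which ranged from -1.08 without replicate 13 to -0.22 without replicate 7 and was -1.63 with the stroma genes as a covariate.

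Most markers of the mature neutrophil were below 4 log2 units on the lymphomas. Csf3r, the G-CSF receptor, was at most 3.78 on every lymphoma, and Cxcr2, Itgam and Il1b did not exceed 3.14 on either side. Other untested members exceeded 4 on some arrays. Mmp9 reached 5.30 on the low and 3.16 on the high side, Fpr2 5.10 and 4.46, and Gsr 4.57 and 3.99. Padi4 went the other way, with 3.02 on the low and 4.31 on the high side. Of 29 listed genes 4 were tested. Wfdc21, a secreted whey acidic protein, was higher at an unadjusted p under 0.05. This is 1 of 4, beside 2% of all genes, and too few genes were tested to describe the list. Wfdc21 lay at 4.05, 4.73 and 6.19 on the high side and at 3.75, 3.86 and 4.03 on the low side, with no overlap (difference 1.08, SE 0.33, limma adjusted p = 0.866). The premalignant arrays were brighter than any lymphoma, at 6.33 to 7.34. Slpi, an inhibitor of neutrophil elastase, had a difference of 0.90 (SE 0.47, limma adjusted p = 0.866), which was 0.53 without replicate 13 and 0.41 with the stroma genes as a covariate.

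Other S100 genes did not follow the pair as a family. The 6 tested genes of the list include S100pbp, which encodes an S100-binding protein and is no S100 gene itself. Of these 6, 0 passed an unadjusted p under 0.05, and the median difference was 0.07 (-0.19 with spike centring). S100a6, a calcium-binding protein of proliferating cells, varied most: it lay at 4.30, 9.03 and 10.35 on the high side and at 4.89, 6.69 and 9.96 on the low side. The sides overlapped widely, and the difference was 1.48 (SE 1.06, limma adjusted p = 0.885). It was 2.30 without replicate 13, 3.83 without the arrays with Bpifa2 above 6 and 0.61 without replicates 5 and 11. The S100a10 difference was 0.20.

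The S100A8/S100A9 receptors Tlr4 and Ager (RAGE) were below 4 on both sides, with highest values of 3.11 and 3.23 on the high side. Of 13 tested genes of the receptor and regulator list, 1 was higher at an unadjusted p under 0.05 and 4 were lower, beside 2% and 3.62% of all genes. With spike centring 0 were higher and 4 lower. The higher one was Anxa6, a membrane-binding annexin, with a difference of 0.72 (SE 0.22, limma adjusted p = 0.866). Bsg, the receptor basigin, had a difference of -0.40 (SE 0.16), and Stat3, the factor that relays cytokine signals to S100 genes in myeloid cells, one of -0.51 (SE 0.17). The other genes with a lower value were Cd68, a macrophage lysosomal protein, and Il6ra, the IL-6 receptor. Spi1, the gene of PU.1, had a difference of -0.22, and Cebpb one of -0.43.

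Macrophage genes did not share the direction of the granule genes. Of 29 tested, 6 differences were above 0, beside 47.8% of all genes, and the median was -0.28. At an unadjusted p under 0.05, 5 genes were lower on the high side (Cd68, C1qb, Fcgr3, Apoe and Ms4a7) and 1 was higher, beside 3.62% and 2% of all genes, and with spike centring 10 were lower. Cd68 lay at 6.71, 7.16 and 7.54 on the high side and at 7.05, 7.83 and 8.05 on the low side (difference -0.60, SE 0.18, limma adjusted p = 0.866). The higher one was Cd5l, a secreted scavenger protein of tissue macrophages. Cd5l lay at 5.94, 6.55 and 7.41 on the high side and at 2.20, 3.14 and 6.76 on the low side, where replicates 1 and 2 were as bright as the high arrays and the other 4 were below 4. Its difference was 2.61 (SE 0.77, limma adjusted p = 0.866), a ratio of 6.11.

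Atp1b1, the beta subunit of the sodium-potassium pump, was the second gene called on the slope and is no granule gene. It lay at 6.80, 7.52 and 8.23 on the high side and at 4.94, 6.52 and 7.18 on the low side, and it was lowest on replicates 5 and 11, which were also lowest for S100a8 and S100a9. The slope was 0.33 log2 units per log2 unit (SE 0.041, adjusted p = 0.00524, and from 0.00289 to 0.383 over its alternatives), with r = 0.92 over 13 lymphomas and 0.87 without replicates 10 and 4. Without replicate 11 the adjusted p was 0.0504, and without replicates 5 and 11 it was 0.383, so the call was lost without the lymphomas dimmest in S100a8 and S100a9, as it was with spike centring and without the arrays with Bpifa2 above 6. In the split the difference was 1.30 (SE 0.36, limma adjusted p = 0.866). All 4 of its 5 probe sets that passed the filter had a positive difference, from 0.34 to 1.30. The wild type arrays ranged from 5.98 to 8.56, and the 2 with little S100a8 and S100a9 were the dimmer ones.

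Among genes with lower values on the high side, Tspan31, a tetraspanin membrane protein, had the largest difference of those whose sides did not overlap. It lay at 2.79, 3.58 and 6.18 on the high side and at 6.25, 6.60 and 6.96 on the low side. The low lymphomas resembled the wild type (6.22 to 6.40) and premalignant arrays (5.85 to 6.52), whereas 4 of 6 high lymphomas were below 4. The highest of the high arrays was replicate 10, so that the lymphoma with the most S100a8 and S100a9 had Tspan31 near the wild type level. The low mean was at least 6.18-fold above the high mean set at the floor (difference -2.70, SE 0.47, limma adjusted p = 0.282). Without replicate 10 its adjusted p was 4.8e-04, and with all 22 arrays in 1 fit it was 0.00326. The other probe sets of Tspan31 differed by -0.49 and 0.11, both near background.

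Hipk2, a kinase that phosphorylates p53, lay at 5.29, 5.65 and 5.94 on the high side and at 6.18, 6.40 and 7.13 on the low side. Here the high side was the one nearer to wild type arrays, which ranged from 4.87 to 5.62. The difference was -0.88 (SE 0.16, limma adjusted p = 0.288), a ratio of 1.83. The other Hipk2 probe set that passed the filter differed by -0.69. Its sides overlapped, with values up to 4.63 on the high side and from 4.49 on the low side. The Hipk2 probe sets that did not pass differed by 0.022, -0.12 and -0.66. Further genes without overlap were lower on the high side with limma adjusted p = 0.866 each. They include Saraf, an inhibitor of store-operated calcium entry (-1.01, SE 0.22), Zfp36l1, an RNA-binding protein that promotes mRNA decay (-0.99, SE 0.28), and Atf6b, a factor of the unfolded protein response (-0.47, SE 0.12). In the other direction they include Cbx6, a Polycomb protein (0.95, SE 0.23), and Blmh, the protease bleomycin hydrolase (0.41, SE 0.11). Dusp16, a phosphatase of JNK and p38, had the most negative correlation with the pair (r = -0.84, slope adjusted p = 0.107), with medians of 3.59 on the high and 4.45 on the low side.

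**Figure D4:**
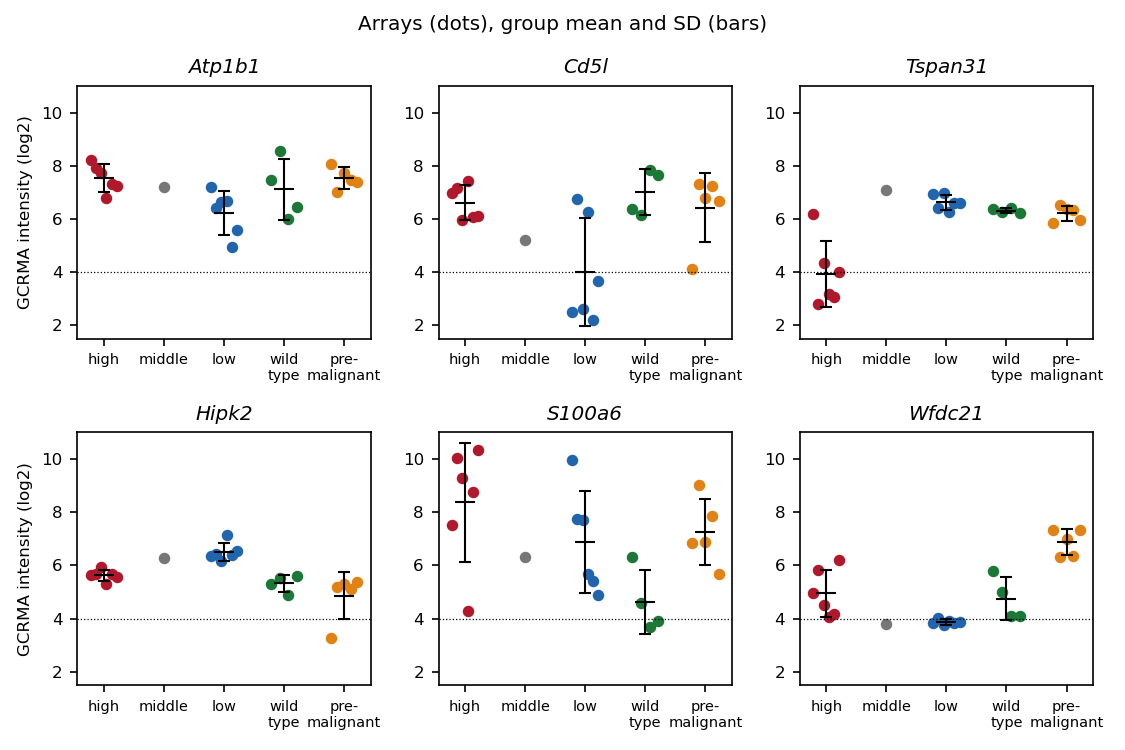
Log2 intensity of 6 genes by side of the split and in the wild type and premalignant arrays; dots are arrays, bars are the mean and SD, and the dotted line marks a log2 intensity of 4. Tspan31 and Hipk2, each shown by its brightest probe set, separate both sides completely, and Cd5l is below 4 on 4 of 6 low lymphomas.

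In the B cell genes the sides differed little beyond their spread. Myc lay at 8.67, 9.71 and 10.40 on the high side and at 9.06, 9.49 and 10.76 on the low side, a difference of -0.09 (SE 0.32, limma adjusted p = 0.977) whose sign changed with the setting. The genes of early B cells had a median of -0.38 over 13 tested, and those of mature B cells a median of 0.08 over 17 (-0.18 with spike centring). The early genes with an unadjusted p under 0.05, Sox4 and Cd93 (2 of 13), were lower on the high side. The mature ones, Ms4a1 and Ly6d (2 of 17), were higher. The shares of all genes were 3.62% lower and 2% higher. With spike centring 2 early genes were lower, and of the mature genes 2 were higher and 1 lower. Ms4a1, the gene of CD20, lay at 5.85, 9.60 and 10.68 on the high side and at 4.64, 7.02 and 9.69 on the low side (difference 1.96, SE 0.88, limma adjusted p = 0.866, and 0.51 for the 4 highest against the 4 lowest lymphomas). Differences of all 9 tested MHC class II genes were above 0, beside 47.8% of all genes, but 0 passed an unadjusted p under 0.05. With spike centring 4 of 9 were above 0, beside 643 of all 6435 genes. Cd74, the invariant chain, had a difference of 1.19 (SE 1.18) that was 0.17 without replicate 1 and turned to -0.068 with the stroma genes as a covariate.

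Genes of mitosis had small positive differences. Of 26 tested, 24 lay above 0, beside 47.8% of all genes, and the median was 0.29. With spike centring 15 of 26 lay above 0 and the median was 0.026, beside -0.27 over all genes. At an unadjusted p under 0.05, 5 were higher (Nek2, Mki67, Ccna2, Kif11 and Cenpa) and 0 were lower, beside 2% and 3.62% of all genes, and with spike centring 0 were higher. Mki67, the proliferation marker Ki-67, lay at 10.22, 10.50 and 10.67 on the high side and at 9.71, 9.98 and 10.48 on the low side (difference 0.45, SE 0.15, limma adjusted p = 0.866), a ratio of 1.37, and 0.19 log2 units with spike centring. The median was 0.06 over 29 tested genes of DNA replication and 0.03 over 34 of ribosome biogenesis, and both were below 0 with spike centring (-0.21 and -0.23).

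Genes of stroma and endothelium had the opposite sign. Of 21 tested, 2 differences were above 0, beside 47.8% of all genes, and the median was -0.65. At an unadjusted p under 0.05, 4 were lower on the high side: Col1a2, Sparc, Col5a2 and Bgn, which encode parts of the extracellular matrix. The share of all genes was 3.62%, and 3 were lower with median centring and 7 with spike centring. The summed level of the list ranged from 10.15 to 11.88 log2 units on the high side and from 10.96 to 12.50 on the low side, and did not exceed 8.95 on any wild type or premalignant array. The salivary list ranged from 6.01 to 13.61 on the high side and from 6.00 to 12.26 on the low side. The Y-linked gene Eif2s3y had a difference of 2.09 (SE 0.77, limma adjusted p = 0.866), opposite to Xist. Fits of the split with these values as covariates called 0 genes each. At an unadjusted p under 0.05 they held 193 genes with the stroma mean, 346 with the salivary mean and 269 with Xist, beside 362 without a covariate, and 374 without the arrays with Bpifa2 above 6.

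**Figure D5:**
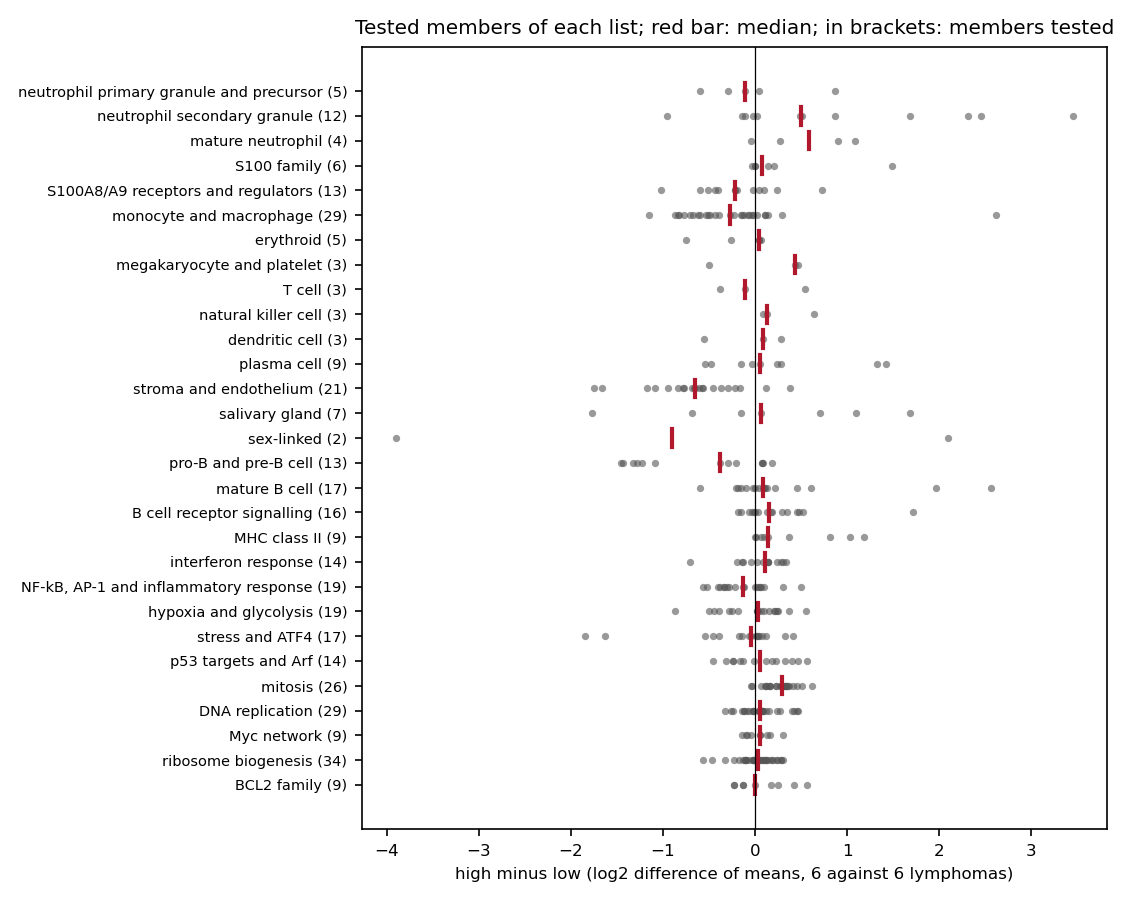
High minus low difference in log2 units of each tested gene of 29 lists (grey dots) with the list's median (red bar); the number of tested genes is in brackets. The granule genes Ngp, Camp, Chil3 and Ltf stand to the right of the other secondary granule genes, and most stroma genes lie to the left of 0.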

How the data were processed

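RNA of 22 arrays (4 wild type, 5 premalignant, 13 malignant; labelled biological replicates) was measured on an Affymetrix mouse array. The deposited values are intensities on a linear scale that the authors made with GCRMA, per the submitters' processing notes, with the version not given in the sources used here; GCRMA corrects background, normalizes between arrays and sums the probes of a set. The number of arrays limits the precision. Log2 was taken of these deposited intensities. Genes were named from GEO's platform annotation: of 22690 probe sets 20380 had 1 symbol, 691 several, 1555 none, and 64 were controls. Probe sets above 4 log2 units on at least 4 of 22 arrays were kept, and the brightest stood for its gene.

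High and low lymphomas were compared with limma 3.58.1 in R 4.3.3 (lmFit, eBayes), with no covariate and Benjamini-Hochberg adjustment over 6435 genes without S100a8 and S100a9, threshold 0.05. A second fit took the slope on both genes over 13 lymphomas. The scripts were tested on simulated data. A fold with a group mean below 4 log2 units is a bound, with that mean set at 4, and none is given where both are below.

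The lymphomas, the 30 gene lists and the tests were chosen with earlier results of these data known. Named genes are the 10 smallest p in each direction, the brightest tested members of each list (up to 3, or up to 8 for neutrophil, S100 and receptor genes), the 10 highest and 5 lowest correlations with the pair, and Myc. Genes at background, the list members named in a count of 5 or fewer, and S100a10, Spi1 and Cebpb were named after their values were seen. So were the untested Mmp9, Fpr2, Gsr and Padi4. Leaving out arrays with salivary or very dim S100 signal, Xist as a covariate, and most slope alternatives were added after seeing the data.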

Additional observations from a re-analysis of the deposited data

Results flagged for a closer look

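Single arrays stood apart from the rest of their group in 9 of 138 groups of values examined (6.52%). The cut-off marks about 1 in 20 groups where values are independent and normally distributed, which was not checked here. Several flags share a gene or an array. On the high side, malignant replicate 10 lay at 10.43 log2 units for Lyz2, against 8.68 to 9.18 on the other 5 arrays, and at 5.85 for the B cell gene Ms4a1, against 8.96 to 10.68. Replicate 4 lay at 10.00 for Bub3, a spindle checkpoint gene, against 9.77 to 9.81. Replicate 9 lay at 7.63 for Apoe, against 8.51 to 8.87. On the low side, replicate 5 lay at 1.73 for Xist, against 9.96 to 11.35. Premalignant replicate 1 differed from the other 4 premalignant arrays in Cd5l (4.13 against 6.66 to 7.31), Hipk2 (3.28 against 5.12 to 5.39), Xist (1.85 against 9.51 to 10.50) and Eif2s3y (4.98 against 2.99 to 3.09).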

How the results depend on the processing

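Over 33 alternatives to the split, 30 called 0 genes. Among these, ranking by S100a8 alone or by S100a9 alone gave the same arrays as the main split and could not differ from it. The slope over 13 lymphomas called 2 (Ngp and Atp1b1) and the fit of all 22 arrays called 2 (Tspan31 and Ngp, the latter with an adjusted p of 0.0211). Leaving out 1 lymphoma gave 0 to 1, the 1 being Tspan31 without malignant replicate 10. Over 27 alternatives to the slope, Ngp was called in 26 and Atp1b1 in 23. Leaving out 1 lymphoma gave 1 to 3 genes, with Ngp alone without malignant replicate 11, and leaving out the lymphomas with Bpifa2 above 6 gave 0; that fit has fewer arrays. Differences that changed sign were those of Lyz2 (0.014) and Gfi1 (-0.17) without the lymphomas with Bpifa2 above 6, and of Cd74 with array weights (-0.033) and with the stroma covariate (-0.068). The Myc difference became 0.033 with the middle lymphoma on the low side, 0.18 with array weights, 0.086 with the stroma covariate, 0.082 without the 2 dimmest low arrays and 0.12 with Xist as a covariate, and it ranged from -0.25 to 0.13 with 1 lymphoma left out. The cause of these shifts was not tested. No paired analysis was possible because the replicate numbers name lymphomas within 1 group and pair none of the high with the low arrays.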
